A study of Mus musculus with 3 samples.

Results

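Genomic imprinting leaves a gene transcribed mainly from the allele of 1 parent. For most imprinted genes the mark is DNA methylation set in the egg or the sperm at imprinting control regions and kept in somatic cells. The mark changes the use of an allele, not its sequence or copy number. Imprinted genes lie in clusters in which maternally and paternally expressed genes, many of them regulators of fetal growth, share a control region. In DNA, each parental allele of such a gene is present once per cell unless an allele has been lost, so the exome gives the baseline against which parent-of-origin expression is read. The genes described here were a list of 51 imprinted mouse genes whose symbols were matched to the Ensembl IDs of the exome count files. Of these, 49 were among the 30212 genes listed, 48 by symbol and *Snrpn* by position, as all 13 SNPs of its listed ID lay in *Snrpn* exons. *Kcnq1ot1* and *Peg13*, both long non-coding RNAs, were not analysed here. The list covered 22 clusters on 11 chromosomes. It set 23 genes as expressed from the maternal allele, 24 from the paternal allele and 4 (*Grb10*, *Gnas*, *Blcap* and *Inpp5f*) from either allele. These alleles were set from general knowledge of imprinting, not from these data, and need not hold in lymphocytes. By its strict criteria for RNA, the study found nonrandom bias among known imprinted genes only for *Zrsr1* and *Igf2r* in B cells, and also for *Airn* in T cells.

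Whole-exome DNA was sequenced from lymphocytes that arose in vivo from transplanted hematopoietic stem cells (HSCs), with 1 library from each of 3 recipient animals. Animal E6.2 was polyclonal, reconstituted with 50 HSCs, and gave 58000 B220+IgM+ B cells. E6.43 and E15.10 were monoclonal, each reconstituted with 1 HSC, and gave 250000 and 177000 CD4+CD8- thymocytes. Donor animal 6 supplied the HSCs for both E6 recipients, and donor animal 15 the HSC for E15.10. All donors and recipients were female F1 mice of a C57BL/6J (B6; C57BL/6 in the labels) mother and a CAST/EiJ (CAST) father. Donor cells carried Ly5.2 on the B6 chromosome, the sublethally irradiated recipients also carried Ly5.1, and donor cells were sorted. As the reciprocal cross was not analysed here, maternal and B6 are the same allele in every library, and a parental effect and a strain effect cannot be told apart. Clonality and cell type cannot be told apart either, since the polyclonal library was the only one of B cells. The labels place these B cells in the spleen and the study's methods in the bone marrow. With no second library of any kind, no value has a replicate error, and the tests below compare libraries, not conditions.

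Allelic imbalance (AI) is the maternal (B6) count of a gene over its maternal plus paternal (CAST) counts, summed over its SNPs, so that 0.5 is balance, 1 is maternal reads only and 0 paternal reads only. Where 3 values follow each other below, they are for E6.2, then E6.43, then E15.10. Library totals were 19471576, 13036005 and 10863972 allelic counts, of which 0.149%, 0.148% and 0.166% fell in imprinted genes. AI was read at 10 or more counts, which 44, 45 and 45 imprinted genes reached, 44 of them in every library. The median over all autosomal genes at that depth was 0.537, 0.538 and 0.537. Wilson intervals at 95% confidence are given for counting error only. They are too narrow, since 1 read pair can cover several SNPs: 52.2%, 48.5% and 51.8% of the SNPs of imprinted genes with 10 or more counts had another such SNP within the 150 bp of a read.

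The counts rest on short stretches of exon around SNPs between the strains. Below are the stretches of 61 bases (29 for *Commd1*, whose SNP lies in a UTR) around the SNP for genes whose values carry the account, in the GRCm38 reference, which is the B6 sequence, written along the gene's strand. The capital letter marks the SNP and is the B6 base. The files give positions and counts but no CAST base. They were chosen to show where the reads of the reciprocal cluster pairs and of the genes farthest from balance came from.
*H19*, the non-coding exon SNP that held most of its counts, chr7:142576490-142576550, minus strand: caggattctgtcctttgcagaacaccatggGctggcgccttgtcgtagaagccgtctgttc
*Igf2*, a SNP of an exon that is non-coding in the annotation, chr7:142655598-142655658, minus strand: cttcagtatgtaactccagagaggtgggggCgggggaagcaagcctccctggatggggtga
*Igf2r*, a coding SNP, chr17:12713955-12714015, minus strand: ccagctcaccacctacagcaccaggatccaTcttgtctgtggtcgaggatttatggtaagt
*Airn*, a SNP of the long non-coding RNA, chr17:12859793-12859853, plus strand: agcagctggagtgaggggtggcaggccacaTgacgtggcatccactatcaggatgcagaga
*Peg3*, a coding SNP, chr7:6711873-6711933, minus strand: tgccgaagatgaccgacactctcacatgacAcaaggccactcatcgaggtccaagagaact
*Zim1*, the first of 4 neighbouring coding SNPs, chr7:6687663-6687723, minus strand: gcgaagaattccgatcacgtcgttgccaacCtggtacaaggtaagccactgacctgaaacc
*Calcr*, the best covered of 4 coding SNPs, chr6:3687524-3687584, minus strand: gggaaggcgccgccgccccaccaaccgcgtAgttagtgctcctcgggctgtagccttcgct
*Mcts2*, the only SNP of the gene, chr2:152687492-152687552, plus strand: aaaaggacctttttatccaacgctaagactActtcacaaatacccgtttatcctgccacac
*Phlda2*, the only SNP of the gene, chr7:143502359-143502419, minus strand: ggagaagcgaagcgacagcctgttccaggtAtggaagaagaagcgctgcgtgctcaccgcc
*Commd1*, a UTR SNP, chr11:22982245-22982273, minus strand: ggcaggccctccttAgccatggcgggcga

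Imprinted genes were close to allelic balance in the DNA of all 3 libraries, whichever parental allele is expressed. Their median AI was 0.524, 0.525 and 0.533, and the middle 50% of the genes lay from 0.493 to 0.552, from 0.489 to 0.558 and from 0.50 to 0.566. Summed over the genes, 15389 of 28958 counts were maternal in the B cell library (AI 0.531, interval 0.526 to 0.537). In the T cell libraries these were 10271 of 19335 for E6.43 (0.531, 0.524 to 0.538) and 9658 of 18078 for E15.10 (0.534, 0.527 to 0.542). For all autosomal genes the same sum gave 0.541 in each library.

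No imprinted gene was in the range that the study's methods use for loss of heterozygosity (LOH), AI under 0.25 or over 0.75, in E6.2, where 5.32% of all autosomal genes were. In E6.43, 1 of 45 was (background 5.56%), and in E15.10, 2 of 45 were (background 5.24%). These were *Nap1l5* in E6.43, with 2 maternal of 10 counts at its single SNP, and *Dio3* and *Calcr* in E15.10, with 8 of 10 and 61 of 80. At 90 or more counts, no imprinted gene was in that range in any library, while 3.78%, 3.62% and 2.54% of all autosomal genes at that depth were. The whole Wilson interval lay inside 0.25 to 0.75 for 42 of 44, 42 of 45 and 42 of 45 imprinted genes (95.5%, 93.3% and 93.3%), and for 90.4%, 88.4% and 85.8% of all autosomal genes.

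A narrower range of balance, AI from 0.4 to 0.6, left out 5 of 44 imprinted genes (11.4%) in the B cell library, where 21.2% of all autosomal genes were left out. It left out 9 of 45 in the E6.43 library (background 24.9%) and 6 of 45 in the E15.10 library (background 27.2%). They were *H19*, *Igf2*, *Impact*, *Nnat* and *Zdbf2* in E6.2. In E6.43 they were *H19*, *Zim1*, *Ube3a*, *Phlda2*, *Impact*, *Nap1l5*, *Zrsr1*, *Commd1* and *Mcts2*, and in E15.10 *H19*, *Zim1*, *Ube3a*, *Cd81*, *Calcr* and *Dio3*. On gene sums, *H19* was the only gene outside it in every library, on the maternal side each time. Its median over SNPs was 0.433, 0.621 and 0.727, so in E6.2 that value lay inside the range, below 0.5.

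**Figure D1:**
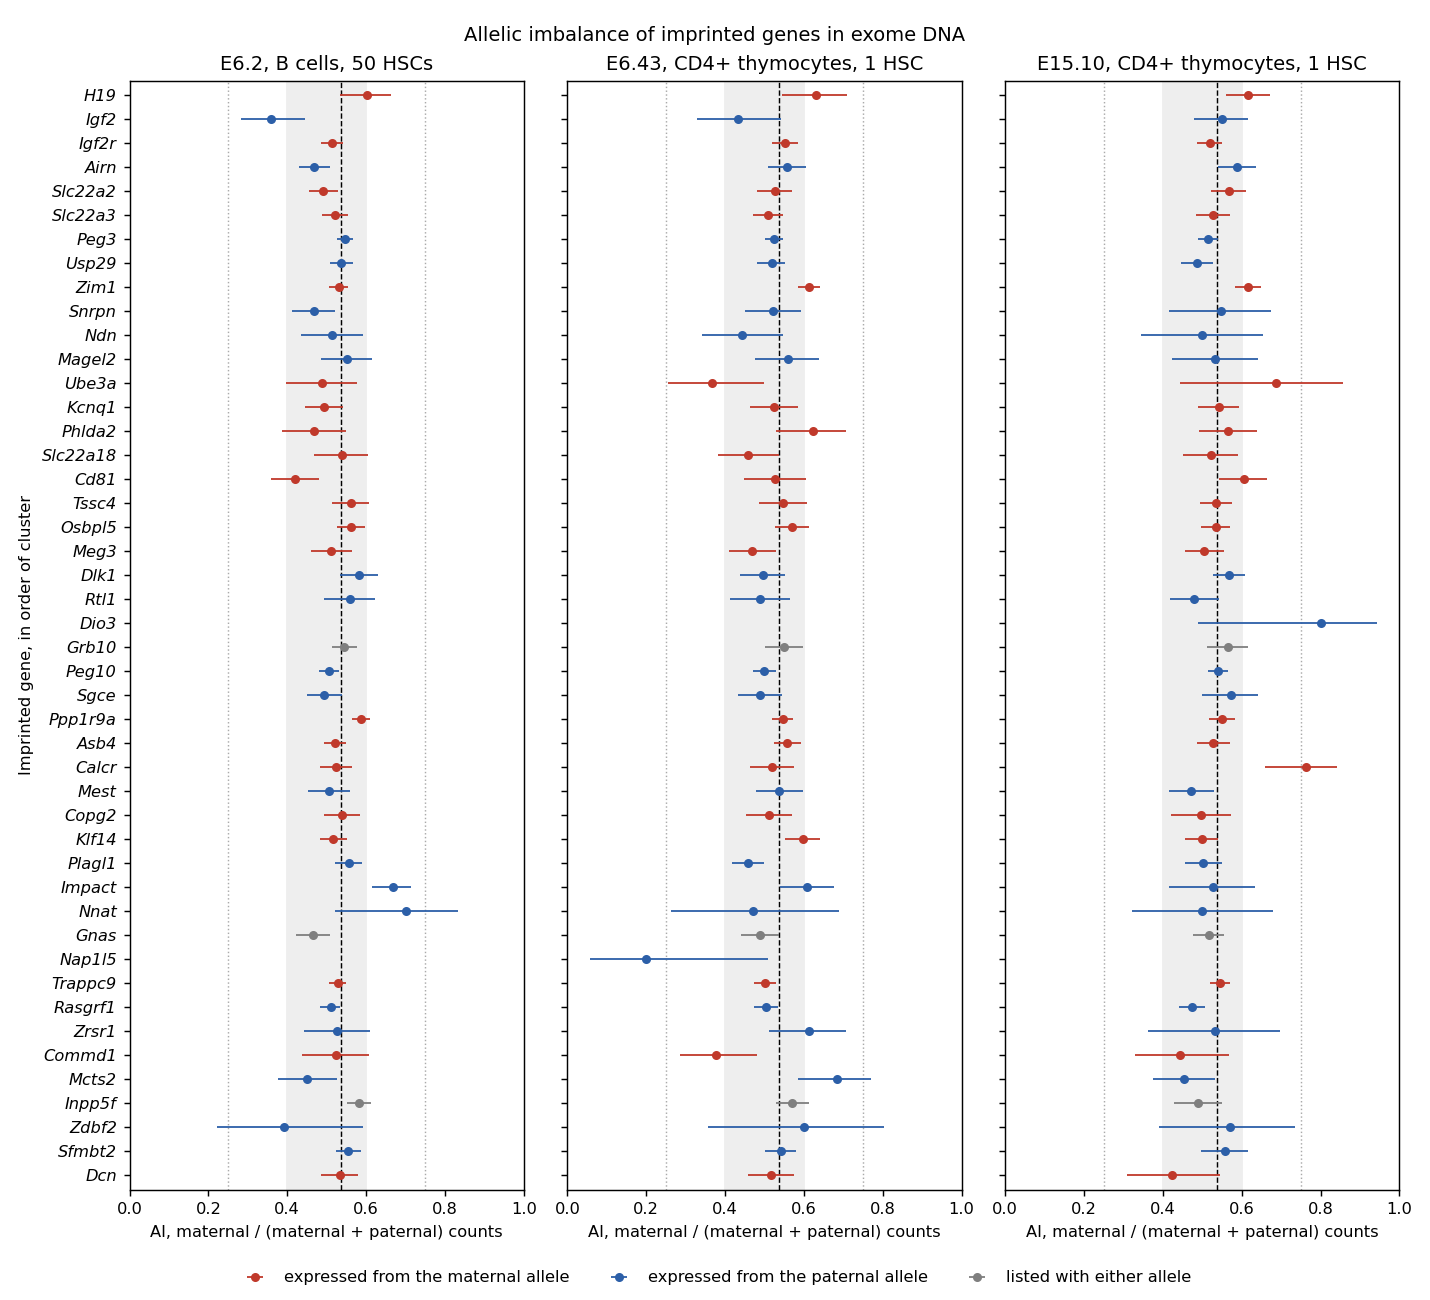
AI of each imprinted gene (horizontal axis, maternal over maternal plus paternal counts, no unit) in the 3 exome libraries, with 95% Wilson intervals, at 10 or more counts. Red genes are expressed from the maternal allele, blue from the paternal allele and grey are listed with either; the dashed line is the median of all autosomal genes (0.537, 0.538 and 0.537), the grey band 0.4 to 0.6 and the dotted lines 0.25 and 0.75. Most genes lie in the band, and *Calcr* and *Dio3* in E15.10 and *Nap1l5* in E6.43 lie beyond the dotted lines.

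Each gene was then tested against its library's autosomal median with a two-sided beta-binomial test, in which the overdispersion comes from all autosomal genes with 50 or more counts, with Benjamini-Hochberg adjustment over all autosomal genes. No imprinted gene passed an adjusted p of 0.05, 0 of 44, 0 of 45 and 0 of 45, beside a background of 2.73%, 2.46% and 2.19% of all autosomal genes. At an unadjusted p under 0.05 there were 0, 0 and 1, beside 5.25%, 5.16% and 6.29% of all autosomal genes. The gene was *Calcr* (p = 0.0338, adjusted p = 0.633, beta-binomial test). The test could see only a strong imbalance. A gene with 447 counts in E6.2, the median of imprinted genes, would have passed at an AI of 0.186 or less or 0.866 or more. In E6.43, with 280 counts, these limits were 0.171 and 0.882, and in E15.10, with 290 counts, 0.234 and 0.824. A gene without any reads of 1 allele would have passed from 19, 20 and 16 counts on, a depth that 44 of 44, 42 of 45 and 44 of 45 imprinted genes had. An exact binomial test, which takes every count as independent, passed 10, 8 and 5 imprinted genes, beside 34.9%, 31.8% and 30.2% of all autosomal genes.

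**Figure D2:**
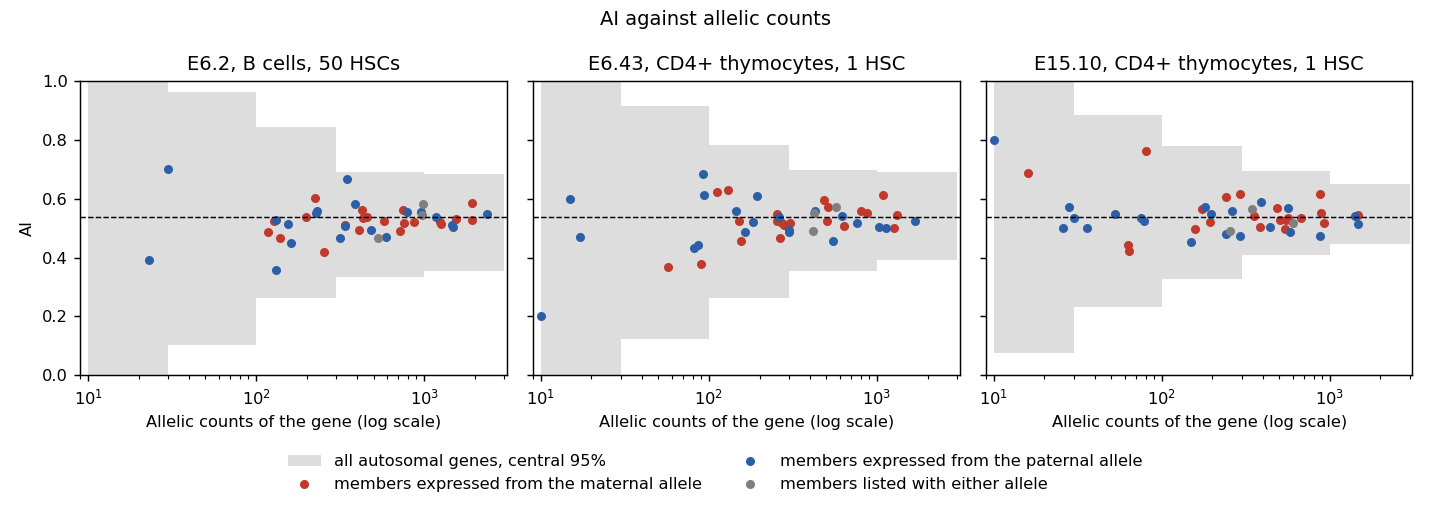
AI (vertical axis, no unit) of imprinted genes against the allelic counts of the gene (horizontal axis, log scale) in each library. The grey bands hold the central 95% of all autosomal genes in the same range of counts and narrow as counts rise. All 44, 45 and 45 imprinted genes lie inside them. Below 30 counts the bands cover every possible value in E6.2 and E6.43 and nearly every one in E15.10.

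Set against autosomal genes of like depth, no imprinted gene of the 44, 45 and 45 lay outside the central 95% of values. For 300 to 999 counts that central range was 0.334 to 0.692, 0.355 to 0.698 and 0.408 to 0.693. For 30 to 99 counts it was 0.103 to 0.962, 0.123 to 0.915 and 0.233 to 0.884. For 10 to 29 counts it was 0 to 1.00 in E6.2 and E6.43, where no gene could lie outside it, and 0.0769 to 1.00 in E15.10. The comparison thus says little of the 1, 3 and 4 imprinted genes at that depth. The 426 other genes listed within 500 kb of an imprinted gene, a local background, included 12 of 292, 17 of 290 and 16 of 279 in the LOH range at 10 or more counts, with median AI of 0.544, 0.537 and 0.539.

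The 2 parental types were compared by their median AI in DNA. Genes expressed from the maternal allele had a median AI of 0.523 (n = 21), 0.526 (n = 21) and 0.535 (n = 21). Genes expressed from the paternal allele had 0.520 (n = 20), 0.518 (n = 21) and 0.533 (n = 21), so the maternally expressed side was higher by 0.0036, 0.0079 and 0.0020. The size of this gap depended on the setting. Over 6 alternatives it ran from -0.0028 to 0.0126 in E6.2, from 0.0028 to 0.0375 in E6.43 and from 0.0012 to 0.0296 in E15.10, with the widest gap of each T cell library under the median over SNPs (0.541 against 0.504, and 0.551 against 0.521). Among genes with at least 90 counts in every library, the medians were 0.546 (n = 17) against 0.511 (n = 12) in E6.43 and 0.535 against 0.509 in E15.10. Genes listed with either allele had 0.545, 0.550 and 0.516 (n = 3, as *Blcap* had no count). Over summed counts the maternally expressed genes stood at 0.531, 0.542 and 0.546 and the paternally expressed genes at 0.529, 0.517 and 0.520. The Wilson intervals of these sums overlapped in the B cell library (0.523 to 0.539 and 0.520 to 0.538). They did not overlap in E6.43 (0.532 to 0.552 and 0.506 to 0.527) nor in E15.10 (0.536 to 0.556 and 0.509 to 0.532). These intervals leave out the sharing of reads among SNPs and the spread among genes. *Zim1* alone gave 1085 of the 9794 counts of the maternally expressed genes in E6.43. Its share in E15.10 was 876 of 9483.

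In 8 clusters, counts were at hand for genes of both parental types, whose listed expressed alleles are opposite; their RNA in these cells was not analysed here. In DNA the maternally expressed side had the higher AI in 4 of 8, 4 of 8 and 5 of 8 clusters, with a median difference of 0.0081, 0.00081 and 0.018. It was higher in all 3 libraries in 3 clusters (*H19-Igf2*, *Peg10-Sgce* and *Mest*) and in no library in 2 (*Dlk1-Dio3* and *Zrsr1-Commd1*).

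**Figure D3:**
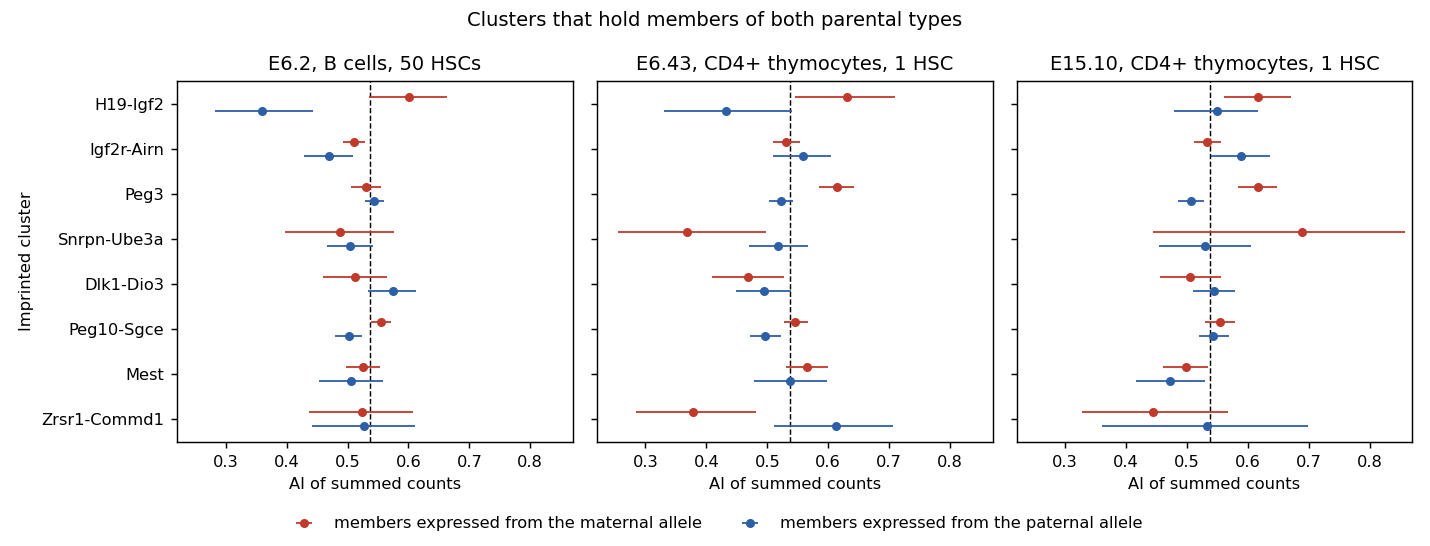
AI of summed counts (horizontal axis, no unit) of the maternally expressed (red) and paternally expressed (blue) genes of 8 imprinted clusters in each library, with 95% Wilson intervals; the dashed line is the autosomal median. In the *H19-Igf2* cluster red lies above blue in each library, by 0.242, 0.199 and 0.069, whereas in the *Snrpn-Ube3a* cluster the order turns between libraries.

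The *H19-Igf2* cluster of distal chromosome 7 had the widest gap of these in E6.2. *H19* (chr7:142575529-142578143) encodes a maternally expressed long non-coding RNA, and *Igf2* (chr7:142650766-142666816) the paternally expressed insulin-like growth factor 2. *H19* had 134 maternal and 89 paternal counts in the B cell library (AI 0.601, interval 0.535 to 0.663). The T cell libraries had 82 and 48 (E6.43, AI 0.631, 0.545 to 0.709) and 179 and 111 (E15.10, AI 0.617, 0.560 to 0.671). On gene sums, all 3 libraries were alike and on the maternal side. The SNP printed above carried 187 of the 223, 124 of the 130 and 245 of the 290 counts, at AI of 0.652, 0.621 and 0.604, so the gene value is close to that of a single site. *Igf2* had 47 maternal and 84 paternal counts in the B cell library (AI 0.359, interval 0.282 to 0.444). The T cell libraries had 35 and 46 (E6.43, AI 0.432, 0.330 to 0.541) and 107 and 88 (E15.10, AI 0.549, 0.479 to 0.617). It lay on the paternal side in both libraries of donor 6 and near the autosomal median in E15.10. In E6.2 its SNPs ranged from 0.241 (7 of 29 counts, in the UTR) to 0.536 (15 of 28, coding), and in E6.43 its coding SNP stood at 0.846 (11 of 13). The difference in *Igf2* AI between E15.10 and E6.2 was 0.190 (Fisher's exact test on counts scaled for overdispersion, p = 0.0826, adjusted p = 0.860).

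In the *Igf2r-Airn* cluster of chromosome 17, *Igf2r* encodes the receptor that clears insulin-like growth factor 2, and *Airn* the antisense long non-coding RNA that silences it on the paternal chromosome. *Igf2r* had an AI of 0.514 (1254 counts), 0.551 (875 counts) and 0.519 (927 counts), and *Airn* of 0.469 (597 counts), 0.558 (425 counts) and 0.589 (389 counts). The genes overlap on opposite strands, but no SNP was listed under 2 imprinted genes, so their counts come from different sites. *Igf2r* thus stayed close to balance on gene sums, although single SNPs in E6.43 reached 0.88. The transporter genes *Slc22a2* and *Slc22a3* lay from 0.491 to 0.567 and from 0.509 to 0.528.

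In the *Peg3* cluster of proximal chromosome 7, *Peg3* encodes a zinc finger protein and was the best covered imprinted gene, with 2358, 1693 and 1480 counts. Its AI was 0.547 (interval 0.527 to 0.567), 0.525 (0.501 to 0.548) and 0.514 (0.489 to 0.540). *Usp29*, a member of the ubiquitin-specific protease family, had 0.537, 0.518 and 0.486. *Zim1*, a maternally expressed zinc finger gene of the cluster, had 0.530 (interval 0.505 to 0.555), 0.614 (0.585 to 0.642) and 0.616 (0.584 to 0.648). Both T cell libraries thus stood above the B cell library, with intervals that did not overlap it, but the scaled Fisher's exact test gave adjusted p of 0.668 and 0.632. The shift lay at 4 coding SNPs that fit within 1 read of 150 bp and can share their reads, where summed AI was 0.499, 0.644 and 0.679. Over the other SNPs of the gene it was 0.568, 0.578 and 0.530, with overlapping intervals. With SNPs at least 300 bp apart, *Zim1* stood at 0.536, 0.588 and 0.590.

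The *Snrpn-Ube3a* cluster of central chromosome 7 is the region of Prader-Willi and Angelman syndromes in humans. *Ube3a*, which encodes a ubiquitin ligase and is maternally expressed in neurons, had an AI of 0.487 (117 counts), 0.368 (57 counts, interval 0.255 to 0.498) and 0.688 (16 counts, interval 0.444 to 0.858). The low and the high value lie on opposite sides of balance. The interval of the low value leaves out the autosomal median (beta-binomial test, p = 0.242), and that of the high value includes it. Paternally expressed *Snrpn*, which encodes a spliceosomal protein, had 0.467, 0.522 and 0.547 with 317, 182 and 53 counts. *Ndn* and *Magel2*, of the MAGE family, had 0.513, 0.442 and 0.50, and 0.551, 0.559 and 0.533.

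In the *Dlk1-Dio3* cluster of chromosome 12, maternally expressed *Meg3*, a long non-coding RNA, had 0.512, 0.468 and 0.505. Of the paternally expressed genes, *Dlk1*, a membrane protein related to Notch ligands, had 0.582, 0.495 and 0.567 with 388, 301 and 561 counts. *Rtl1*, a gene derived from a retrotransposon and used in the placenta, had 0.559, 0.488 and 0.479. *Dio3*, which encodes an enzyme that inactivates thyroid hormone, had only 2, 3 and 10 counts, and its 0.800 in E15.10 has an interval of 0.490 to 0.943.

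The *Peg10-Sgce* cluster of proximal chromosome 6 held the gene farthest from balance among those with 50 or more counts. *Calcr* (chr6:3685680-3764714), the maternally expressed gene of the calcitonin receptor, had 301 maternal and 273 paternal counts in the B cell library (AI 0.524) and 158 and 147 in E6.43 (AI 0.518). In E15.10 it had 61 and 19 (AI 0.762, interval 0.659 to 0.842). On gene sums, both donor 6 libraries lay near the autosomal median. Their SNPs ran from 0.385 to 0.577 in E6.2 and from 0.450 to 0.593 in E6.43. The gene did not pass the beta-binomial test in E15.10 (adjusted p = 0.633), but lay on the maternal side at all 4 covered SNPs. There, 25 of 33 counts were maternal at the SNP printed above, 18 of 21 at the next best covered one and 9 of 13 at each of the others. These SNPs lie in coding exons of the part of the gene farther from its start. The difference in AI was 0.238 from E6.2 (p = 0.0592, adjusted p = 0.756) and 0.244 from E6.43 (p = 0.0514, adjusted p = 0.749, scaled Fisher's exact test). The 7 other genes listed within 500 kb stood from 0.476 to 0.647 in E15.10. They had 17 to 120 counts there and 148 to 883 in E6.2, with autosomal totals of 10624832 and 18906729. Lower depth in E15.10 was thus shared by the genes around *Calcr*. *Calcr* was also among the genes that lost most depth in E15.10, where the log2 ratio of its CPM (counts scaled to the autosomal total of the library) over E6.2 was -2.01. Its neighbour genes in the cluster were near the autosomal median in each library, with *Ppp1r9a* (neurabin) at 0.587, 0.546 and 0.551, *Asb4* at 0.520, 0.558 and 0.527, *Peg10* at 0.505, 0.499 and 0.540 and *Sgce*, the epsilon-sarcoglycan gene, at 0.494, 0.488 and 0.572.

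**Figure D4:**
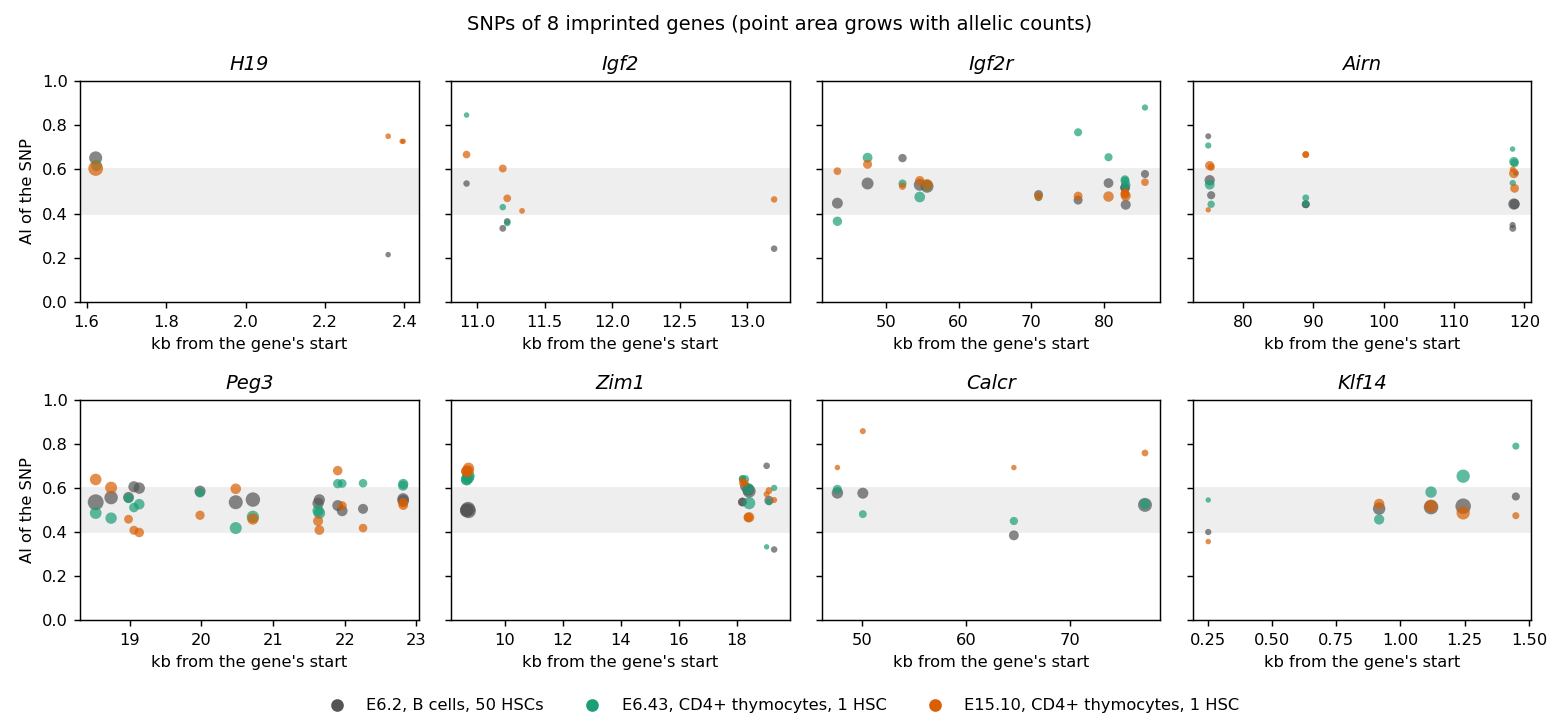
AI of single SNPs (vertical axis, no unit) with 10 or more counts against their distance from the gene's start in kb, for 8 imprinted genes. Grey points are E6.2, green E6.43 and orange E15.10, larger points have more counts, and the band marks 0.4 to 0.6. The 4 *Calcr* SNPs of E15.10 all lie at 0.692 or more, and the *Zim1* SNPs nearest the start lie higher in both T cell libraries than in E6.2.

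In the *Mest* cluster of chromosome 6, paternally expressed *Mest*, a hydrolase family gene, had 0.506, 0.538 and 0.472, and maternally expressed *Copg2*, a coatomer subunit, 0.539, 0.511 and 0.497. *Klf14*, a maternally expressed transcription factor gene without introns, had 0.517 (762 counts), 0.597 (484 counts) and 0.498 (540 counts). The *Zrsr1-Commd1* cluster of chromosome 11 is nested, with the paternally expressed splicing factor gene *Zrsr1* inside an intron of *Commd1*. *Zrsr1* had 0.527, 0.613 and 0.533 with 131, 93 and 30 counts, all at 1 SNP. *Commd1* had 0.523, 0.378 and 0.444 with 128, 90 and 63 counts. In E6.43 the intervals of *Zrsr1* (0.511 to 0.706) and *Commd1* (0.285 to 0.481) did not overlap, with the paternally expressed gene on the maternal side. The low value of *Commd1* lay at the UTR SNP printed above, with AI of 0.383, 0.239 (11 of 46 counts) and 0.314, whereas its coding SNP had 0.591, 0.553 (21 of 38) and 0.652.

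In the *Kcnq1* cluster of distal chromosome 7, the maternally expressed genes summed to 0.525, 0.545 and 0.544. *Kcnq1*, a potassium channel gene, had 0.493, 0.525 and 0.542, *Slc22a18* 0.538, 0.458 and 0.521, *Tssc4* 0.561, 0.547 and 0.535 and *Osbpl5* 0.562, 0.571 and 0.534. *Phlda2*, which limits placental growth, had 0.468, 0.622 and 0.566 at its single SNP, with 139, 111 and 173 counts. *Cd81*, a tetraspanin of the B cell co-receptor, had 0.419 (interval 0.360 to 0.481), 0.526 and 0.606 (0.543 to 0.665). The E15.10 value was 0.187 above that of E6.2 (p = 0.0375, adjusted p = 0.630, scaled Fisher's exact test). The low E6.2 value lay at neighbouring non-coding exon SNPs that can share reads, at 0.274 (17 of 62 counts) and 0.328 (20 of 61). The best covered SNP of *Cd81*, in a UTR, had 0.471 (49 of 104) in E6.2. With SNPs at least 300 bp apart, *Cd81* stood at 0.428, 0.487 and 0.598. *Cdkn1c*, an inhibitor of cyclin-dependent kinases, had 3, 1 and 3 counts, and *Ascl2*, a trophoblast transcription factor, had none in any library, as had *Blcap*, so nothing can be said of their alleles.

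Among genes of single-gene clusters, *Impact* on chromosome 18, a regulator of translation, had 0.668 (231 of 346 counts, interval 0.616 to 0.715), 0.609 (117 of 192) and 0.526 (41 of 78). It stood on the maternal side in both donor 6 libraries, opposite to its listed expressed allele. In E6.2, neighbouring coding SNPs of *Impact* that can share reads stood at 0.714, 0.707 and 0.702, and its other covered SNP at 0.526 (40 of 76). In E6.43 its covered SNPs lay from 0.604 to 0.615. With SNPs at least 300 bp apart, *Impact* stood at 0.624, 0.610 and 0.526. *Mcts2*, a retrogene, had 0.451 (162 counts), 0.685 (92 counts, interval 0.584 to 0.771) and 0.453 (150 counts) at its single SNP. Here E6.43 stood apart, by 0.234 from E6.2 (adjusted p = 0.888) and 0.231 from E15.10 (adjusted p = 0.887, scaled Fisher's exact test). *Nnat* had 0.700, 0.471 and 0.50 with 30, 17 and 26 counts, *Zdbf2* 0.391, 0.60 and 0.571 with 23, 15 and 28, and *Nap1l5* 9, 10 and 3 counts. *Trappc9* on chromosome 15 had 0.528, 0.502 and 0.545 and *Rasgrf1* on chromosome 9, a Ras exchange factor gene, 0.510, 0.504 and 0.473, each with at least 873 counts in every library. *Plagl1* on chromosome 10, a zinc finger gene, had 0.556, 0.458 and 0.503, and *Dcn*, the decorin gene, 0.533, 0.517 and 0.422. On chromosome 2, *Sfmbt2* had 0.555, 0.541 and 0.557 and *Gnas*, the stimulatory G protein gene, 0.465, 0.489 and 0.516. *Grb10* on chromosome 11, an adaptor that restrains insulin signalling, had 0.545, 0.550 and 0.564, and *Inpp5f* 0.582, 0.571 and 0.490.

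Between libraries, 0 of 44 imprinted genes differed in any of the 3 pairs by the scaled Fisher's exact test with adjustment over all autosomal genes. The background was 0.207% for E6.43 against E6.2, which share a donor, 1.72% for E15.10 against E6.2 and 1.64% for E6.43 against E15.10. At an unadjusted p under 0.05 there were 1 (*Zim1*), 2 (*Zim1* and *Cd81*) and 0 of 44 imprinted genes, beside 5.87%, 7.01% and 6.74% of all autosomal genes. Their median absolute difference in AI was 0.0376, 0.0394 and 0.0371 for these pairs, and that of all autosomal genes 0.0401, 0.0485 and 0.0515. Over the 3 libraries, the AI of 32 of 44 imprinted genes stayed within a range of 0.1, the narrowest being *Sfmbt2* (0.017). The like share of all autosomal genes is not given here, so this count does not set imprinted genes apart. The largest differences at 50 or more counts in both libraries were those of *Mcts2*, *Phlda2* and *Commd1* (E6.43 against E6.2), *Calcr*, *Igf2* and *Cd81* (E15.10 against E6.2) and *Calcr*, *Mcts2* and *Igf2* (E6.43 against E15.10). AI was above the autosomal median in all 3 libraries for 4 of the 44 imprinted genes (*H19*, *Ppp1r9a*, *Grb10* and *Sfmbt2*) and in none for 9, again without a like share of all autosomal genes.

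Chromosome 7 carries 18 of the 49 genes, and both donor 6 libraries have a long run of genes there with almost no maternal reads (chr7:29697219-35838074, by a running median of 9 genes). No imprinted gene lay in it. The nearest were *Usp29*, 22.7 Mb before it, and *Ube3a*, 23.4 Mb after it. The 16 imprinted genes of chromosome 7 with 10 or more counts had a median AI of 0.534, 0.526 and 0.539, and those of other chromosomes 0.522, 0.517 and 0.527. The *Peg3* genes before the run and the *Snrpn-Ube3a* and distal clusters after it thus kept reads of both alleles in E6.2 and E6.43.

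The 14 genes fixed as the machinery that sets and guards imprints, which include DNA methyltransferases, TET dioxygenases, *Trim28*, *Ctcf* and *Zfp445*, were a comparison list that is not itself imprinted. Of 13 with counts (*Zfp57* had none), 0 passed the beta-binomial test in any library, nor had any an unadjusted p under 0.05. Outside 0.4 to 0.6 were *Ctcf* in E6.43 (0.604, 91 counts) and *Smchd1* (0.608) and *Dppa3* (0.618) in E15.10.

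The depth behind these values differed with the class of exon in which the SNPs lie. Of the 879 SNPs of imprinted genes, 222 were in coding exons, 435 in UTRs and 220 in non-coding exons. In coding exons 85.1%, 82.4% and 84.2% had 10 or more counts, in UTRs 12%, 8.97% and 9.89% and in non-coding exons 25.5%, 22.7% and 23.6%. Over all classes these were 34.0%, 30.9% and 32.3%, and for SNPs of all autosomal genes 43.8%, 41.6% and 39.8%. Coding SNPs held 73.9%, 74.1% and 70.7% of the counts of imprinted genes. Of single SNPs of imprinted genes with 10 or more counts, 10 of 299, 7 of 272 and 8 of 284 lay outside 0.25 to 0.75, in 8, 6 and 6 genes. The like share over SNPs of all autosomal genes is not given here, so these counts cannot be called high or low.

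Between libraries, CPM of a gene varied with GC content over the 44 genes covered in each. For E15.10 over E6.2 the log2 ratio ran from -2.04 (*Ube3a*) to 1.41 (*Igf2*), with a correlation with GC across genes of r = 0.512 and rho = 0.534. For E6.43 over E6.2 it ran from -0.64 to 0.25, with r = 0.337 and rho = 0.326. These are descriptions over genes that share libraries, and genes are not replicates. In 11 genes with GC under 45% the median ratio was -0.58 for E15.10 over E6.2, and in the other 33 genes 0.40. The median counts of these 11 and 33 genes were 435 and 531 in E6.2, 271 and 305 in E6.43, and 150 and 354 in E15.10, so the gap was wide only in the last. *Calcr*, *Ube3a*, *Dcn* and *Snrpn*, with ratios from -2.04 to -1.75, thus had the least precise AI in E15.10 relative to E6.2. Of these, *Calcr* had 47.4% GC and was among the 33 genes, so its low ratio was not that of a gene with GC under 45%. Whether GC content plays a part in the AI of these genes was not tested.

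**Figure D5:**
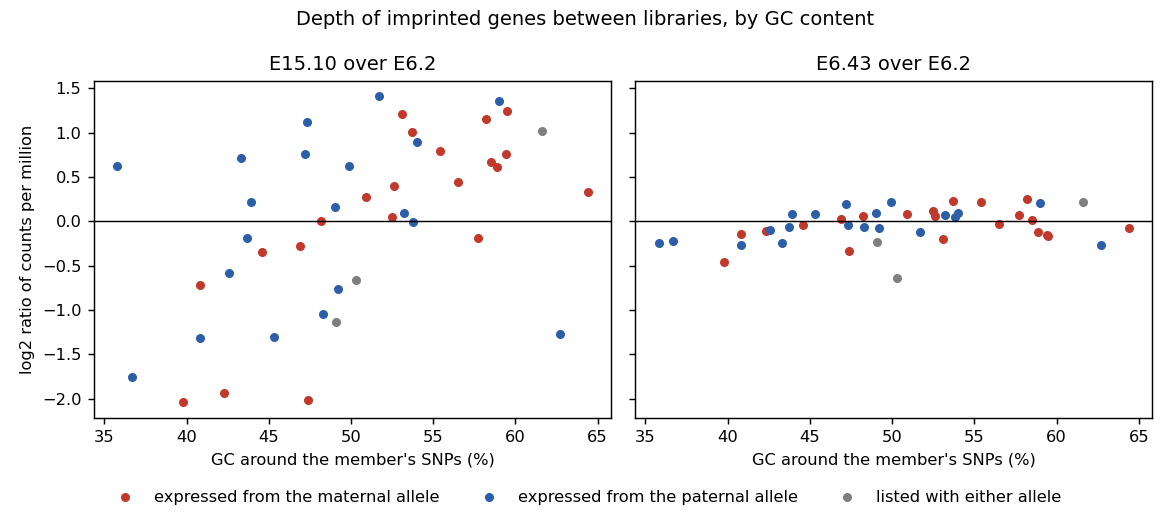
Log2 ratio of CPM between libraries (vertical axis) against the mean GC content around a gene's SNPs in percent (horizontal axis), for the 44 imprinted genes with 10 or more counts in every library, coloured by expressed allele as before. Ratios spread from -2.04 to 1.41 for E15.10 over E6.2 and from -0.64 to 0.25 for E6.43 over E6.2.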

How the data were processed

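Exome DNA of 3 animals was measured, with 1 library each. The authors captured exons (Agilent SureSelect), sequenced 150 bp read pairs, assigned reads to the B6 or CAST allele with the ASEReadCounter* pipeline on GRCm38 and deposited counts of each allele per gene and SNP. The submitters' notes name cutadapt 1.14, Trim Galore, STAR 2.5.4a, SAMtools and GATK. How duplicate reads were treated is not given in the sources used here. Alignment in favour of B6 would raise AI. The deposited table of the whole series holds, for genes with 90 or more counts, totals and the fraction of maternal counts, used as an alternative. The authors' deposited p-value of a binomial test and their calls were not used.

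AI, Wilson intervals at 95% confidence, beta-binomial tests and Fisher's exact tests (counts divided by an overdispersion of 3.23, 3.81 and 3.79 for the pairs in the order of the report, and rounded) were computed in Python 3.11.15 with scipy 1.17.1. The beta-binomial overdispersion was 0.0526, 0.0558 and 0.0334. All tests were two-sided, and p-values were adjusted over all autosomal genes. The tests were run on simulated data with less overdispersion than these data and with changed genes that had almost lost 1 allele. Those runs do not show how the tests perform at the overdispersion found here. Depths were 19471576, 13036005 and 10863972 allelic counts. Genes were named from GENCODE mouse release 21 (GRCm38), in which 29309 of 30212 IDs were found. GC content is that of 201 bp around a SNP, averaged over the gene's SNPs.

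The imprinted genes, their expressed alleles and the comparison list were chosen with earlier results of these data known. Every gene is accounted for. Values in each library were given for genes of clusters with both parental types, genes outside 0.4 to 0.6, genes called, the 3 largest differences of each pair and the best covered gene of each chromosome. Others were added after their values were seen, as were the range of 95% of genes of like depth, the SNP sequences shown, the split of the SNPs of *Zim1* and the GC limit of 45%. Alternatives were the count minimum, the median over SNPs, SNPs at least 300 bp apart, the table of the whole series, the reference of 0.5, tests on unscaled counts and, chosen after seeing the data, an overdispersion from genes with AI from 0.25 to 0.75 and genes with at least 90 counts in every library.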

Additional observations from a re-analysis of the deposited data

How the results depend on the processing

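Of 111 alternative values, 89 kept to within the spread allowed and 22 did not. The 89 include all 54 medians, which were held to the counting error of a gene of median depth, a wide limit for a median over genes. Within it, at 90 or more counts in every library, the maternally expressed median of E6.43 moved from 0.526 to 0.546. The paternally expressed median of E15.10 moved from 0.533 to 0.509. The median of imprinted genes ranged from 0.521 to 0.524 in E6.2, 0.518 to 0.526 in E6.43 and 0.524 to 0.534 in E15.10. The gap between the maternally and paternally expressed medians, a smaller quantity, moved by over 1.5 times in each library (up to 0.0126, 0.0375 and 0.0296, from 0.0036, 0.0079 and 0.0020), and reversed to -0.0028 in E6.2 at 90 or more counts in every library. The count in the LOH range, otherwise 0, 1 and 2 in the order E6.2, E6.43, E15.10, moved as follows. A minimum of 1 count gave 1 in E6.2 (*Cdkn1c*) and 2 in E6.43. A minimum of 50 gave 0 in E6.43 but 1 for E15.10, and a minimum of 90, or the table of the whole series, gave 0 for both. In E15.10 the median over SNPs gave 0 and SNPs at least 300 bp apart gave 1. The count outside 0.4 to 0.6 fell from 5 to 3 in E6.2 at a minimum of 50 or 90 or in the series table, from 6 to 3 in E15.10 at 90 or in that table, and from 9 to 5 in E6.43 with a range around the library median. Tests that take each count as independent called imprinted genes where the others called 0: the exact binomial test 10, 8 and 5 in the same order, and Fisher's exact test on unscaled counts 5 between the donor 6 libraries, 6 between E15.10 and E6.2, and 3 between the T cell libraries, beside 13.8%, 18.8% and 18.7% of all autosomal genes. The reference of 0.5, spaced SNPs and the narrower overdispersion called 0 in every library. No paired analysis was possible because each group holds 1 library.

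With 1 library per animal, no count separates a clone, a donor or a cell type. *Cdkn1c*, *Ascl2*, *Blcap*, *Dio3* and *Nap1l5* had too few counts in at least 2 libraries. An imbalance milder than the limits given for the beta-binomial test was not detectable by that test, at the counts and overdispersion of these libraries.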
